A study of Mus musculus with 3 samples.

Results

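The genes described here are the mouse axon guidance ligands and receptors of 4 classical systems, read in nuclei of sympathetic ganglia. They were taken by symbol from the features of the ganglia library: numbered Slit, Ntn and Sema genes, the A and B classes of Efn and Eph, Robo genes, plexins A to D, Unc5a to Unc5d, and Dcc. This gave 67 of the 32285 listed genes, 35 ligands and 32 receptors, after 3 antisense symbols were left out. The ligands were 20 semaphorins, 8 ephrins, 4 netrins and 3 Slits, and the receptors were 14 Eph receptors, 9 plexins, 4 Robo genes and the 5 genes Dcc and Unc5a to Unc5d.

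The series held 3 libraries, and the ganglia library was the only one whose counts were read here. It was made from nuclei of ganglia that the submitters give only as abbreviations (SCG, STG, T2-T4, CG), dissected from 30 mice and pooled, so no value can be given per mouse or per ganglion. The mice are described as given RHS, which the labels do not expand, together with MC903, a vitamin D analogue (calcipotriol) that raises a dermatitis-like inflammation of the skin; the preparation text mentions MC903 alone. The sample title says skin, while the tissue label says ganglia. The sources used here name no strain, genotype, sex or age. The library had no control partner, so every comparison below is between groups of nuclei of 1 library. No test between conditions was possible and no p-value is given. Intervals are exact 95% intervals that cover counting error only.

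Axon guidance molecules are cues that a growing axon or a migrating cell reads at its surface. Secreted Slits act through Robo receptors, netrins through Dcc and the Unc5 family, semaphorins through plexins (class 3 semaphorins mostly with a neuropilin co-receptor), and ephrins, which are tethered to the cell that makes them, through Eph receptors. In the sympathetic system these families are known for steering the migration of neural crest cells and the growth of postganglionic axons, and several of them also pattern arteries, veins and lymphatic vessels.

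The deposited counts held 4706 barcodes and 11101393 unique molecular identifiers (UMIs, each standing for 1 captured RNA molecule), and 4507 nuclei with a median of 1542 UMIs passed the filters. Its barcodes have 16 letters and those of the skin libraries 27, so the libraries could share none. Clusters were named from marker lists, so each class name below stands for nuclei that resemble that class. Neurons were 1 cluster of 109 nuclei (median 10723 UMIs), glia 1 cluster of 246 (median 1313.5), stromal nuclei 3 clusters with 751 (median 1288), and vascular nuclei 4 clusters with 736 (median 1282.5). The stromal group joined fibroblasts of cluster 2 (409 nuclei), fibroblasts of cluster 6 (287) and perineurial nuclei (55), the flat cells that sheathe nerves and ganglia. The vascular group joined endothelial nuclei of cluster 4 (301, with Eln, Gja5 and Vwf among their leading genes) and cluster 5 (293, with Flt1, Cd300lg and Rbp7), mural nuclei of vessel walls (83) and lymphatic endothelial nuclei (59). The label calls the sample neurons, but most nuclei were not neurons; fat, macrophage, mesothelial and muscle nuclei lay outside the 4 groups.

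The labelled tissue was checked against its markers. All 13 noradrenergic markers had UMIs in the neurons, where their summed level was 5324 CPM (UMIs per 1000000 UMIs of the group). They also had UMIs in every other group, at 2063 CPM in glia, 944 in stromal and 1078 in vascular nuclei, and at 1652 CPM in 167 lymphocyte nuclei used as a reference that should lack them. Tyrosine hydroxylase (Th), which makes the precursor of noradrenaline, stood at 184 CPM in neurons and at 91.8 CPM in lymphocytes. Neuronal transcripts were thus measured in nuclei of all classes, and the part they have in low values outside the neurons was not tested. In the other direction, the 15 glial markers summed to 1515 CPM in neurons, beside 7633 in glia and 972 in stromal nuclei, although 5 of them, among them Sox10, Erbb3, Foxd3 and Fabp7, were at 0 in the neurons; their part in the neuronal values was not tested. The 14 fibroblast and 12 endothelial markers summed to 247 and 173 CPM there, against 13991 CPM in stromal and 7297 CPM in vascular nuclei.

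The proximal promoters of 4 genes of the Slit, Robo and semaphorin systems are shown so that the values can be read beside the sequence. Robo1 and Slit2 stood at opposite levels in the largest neuron sub-clusters, while Robo4 and Sema3g were found almost only in vascular nuclei. The sequences are from RefSeq, build GRCm38.p6, all on the plus strand, from 250 bases before to 50 bases after the annotated start, 5′ to 3′. Capitals mark matches, on either strand, to AGGAAG (an ETS factor core), CAGCTG (an E-box) or TATAAA, a core element upstream of some starts.
Robo1, chr16:72662899-72663198: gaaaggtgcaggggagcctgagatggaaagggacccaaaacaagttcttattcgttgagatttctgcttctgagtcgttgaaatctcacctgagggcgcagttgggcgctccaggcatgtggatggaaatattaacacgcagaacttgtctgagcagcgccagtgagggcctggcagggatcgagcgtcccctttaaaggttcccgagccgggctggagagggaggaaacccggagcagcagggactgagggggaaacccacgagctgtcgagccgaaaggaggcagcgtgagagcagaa
Slit2, chr5:47982905-47983204: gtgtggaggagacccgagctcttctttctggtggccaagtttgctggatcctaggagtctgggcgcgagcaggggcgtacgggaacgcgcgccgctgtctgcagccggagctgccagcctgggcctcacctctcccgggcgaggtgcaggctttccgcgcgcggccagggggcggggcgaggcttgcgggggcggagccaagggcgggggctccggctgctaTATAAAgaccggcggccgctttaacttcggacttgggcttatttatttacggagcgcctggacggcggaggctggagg
Robo4, chr9:37401722-37402021: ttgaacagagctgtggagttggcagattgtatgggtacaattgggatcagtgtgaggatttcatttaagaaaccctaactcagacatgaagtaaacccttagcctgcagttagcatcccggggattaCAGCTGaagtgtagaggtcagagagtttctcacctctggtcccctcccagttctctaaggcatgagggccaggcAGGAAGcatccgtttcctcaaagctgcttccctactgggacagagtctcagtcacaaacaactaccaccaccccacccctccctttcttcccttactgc
Sema3g, chr14:31217623-31217922: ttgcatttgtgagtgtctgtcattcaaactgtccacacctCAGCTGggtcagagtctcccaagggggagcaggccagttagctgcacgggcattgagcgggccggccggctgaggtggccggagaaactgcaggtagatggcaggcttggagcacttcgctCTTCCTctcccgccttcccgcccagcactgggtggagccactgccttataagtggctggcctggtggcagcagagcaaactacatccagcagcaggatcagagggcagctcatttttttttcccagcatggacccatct
The Robo1 window held none of the motifs and the Slit2 window 1 TATAAA. The Robo4 and Sema3g windows each held 1 AGGAAG and 1 CAGCTG, the first in Sema3g on the opposite strand, printed as CTTCCT.

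Of the 67 genes, 57 had such a promoter entry. AGGAAG was in 36.8% of them and in 35.1% of all 27025 promoters of the same length, CAGCTG in 15.8% and 16.1%, the homeodomain core TAATTA in 5.26% and 5.31%, and TATAAA in 3.51% (2 genes) and 14.2%. Among the 14 entries of genes highest in vascular nuclei, AGGAAG was in 35.7%, and among the 16 of genes highest in neurons in 31.3%. These shares describe short windows only, and no matches overlapped in the printed ones.

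With at least 20 UMIs over the 4 groups, 51 genes were counted as measured, 26 ligands and 25 receptors. Neurons were the highest group for 52.0% of the receptors, beside 19.8% of all genes. The ligand shares in vascular (38.5% beside 32.9%) and stromal nuclei (26.9% beside 25.3%) were near those of all genes. Neurons had the highest level of the 4 groups for 13 receptors and 6 ligands, vascular nuclei for 7 receptors and 10 ligands, stromal nuclei for 3 receptors and 7 ligands, and glia for 2 receptors and 3 ligands. The totals of 19, 17, 10 and 5 genes can be read against all 13010 genes tested, of which 19.8% were highest in neurons, 32.9% in vascular nuclei, 25.3% in stromal nuclei and 21.9% in glia. The interval of the ratio over the second group lay above 1 for 14, 15, 7 and 4 of them, a share not counted for all genes.

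Ratios over the mean of the other 3 groups also differed between receptors and ligands. In neurons 18 of 51 genes were at least 2-fold higher, 13 of 25 receptors and 5 of 26 ligands, where 12.8% of all genes were. At least 2-fold lower were 25 (16 ligands and 9 receptors), against 36.0% of all genes. In vascular nuclei 19 were at least 2-fold higher, 11 ligands and 8 receptors, against 13.6% of all genes, and 19 at least 2-fold lower, against 17.3%. In stromal nuclei 7 were higher and 29 lower (10.0% and 17.0% of all genes), and in glia 6 were higher and 28 lower (8.75% and 18.5%). The median log2 ratio in neurons was 1.30 for receptors and -2.52 for ligands, beside -0.61 for all genes; in vascular nuclei it was -1.21 for receptors and 0.40 for ligands, beside 0.13 for all genes.

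**Figure D1:**
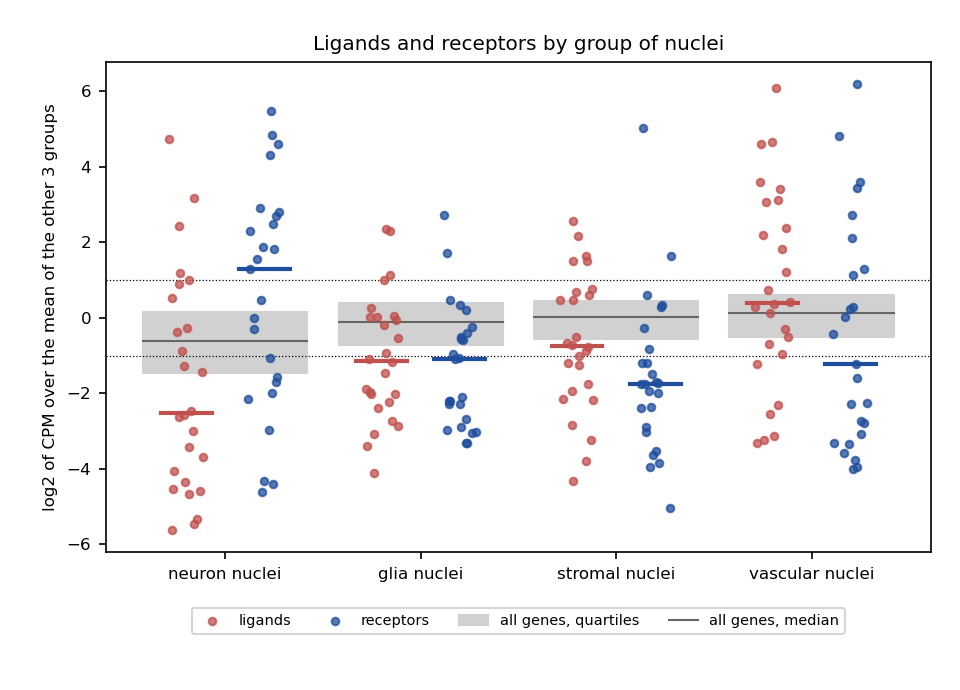
Log2 ratio of the CPM in a group of nuclei over the mean of the other 3 groups, for 26 measured ligands and 25 measured receptors (points) with their medians (thick bars); the grey box and line give the quartiles and median of all 13010 genes, and dotted lines mark 2-fold. Receptors reach a median of 1.30 in neurons, where ligands have a median of -2.52.

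In neurons and vascular nuclei the shares at least 2-fold higher also differed with gene length, counted over ligands and receptors together. RNA from nuclei holds unspliced transcripts, in which long genes can collect more reads, and 30 of the 67 genes span over 100 kb (RefSeq spans, GRCm38.p6). Among measured genes over 100 kb, 13 of 28 (46.4%) were at least 2-fold higher in neurons, beside 26.4% of all genes of that length, and among shorter ones 5 of 23 (21.7%), beside 9.0%. In vascular nuclei the order was the other way, with 6 of 28 long genes (21.4%, beside 13.2%) and 13 of 23 shorter ones (56.5%, beside 14%). The share of the guidance genes was thus above that of genes in the same length class in both groups.

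Slits, the ligands of Robo receptors, were mainly stromal. Slit3 stood at 1319 CPM in neurons, 427 in glia, 4261 in stromal and 405 in vascular nuclei, 5.94-fold higher in stromal nuclei than in the mean of the others. Both fibroblast clusters carried it, at 3845 CPM (cluster 2) and 4902 CPM (cluster 6), and so did mural nuclei at 2236 CPM, while perineurial nuclei had 122 CPM. After each nucleus was thinned to 500 UMIs, 69.0% of stromal and 52.3% of neuron nuclei still had a Slit3 UMI, against 10.8% of lymphocytes. Slit2 stood at 123 CPM in neurons, 51.6 in glia, 185 in stromal and 20.6 in vascular nuclei; its stromal level was 1.5 times that of neurons (interval 1.24 to 1.81). Slit2 was thus the one Slit with a neuronal level near the stromal one, and Slit1 had 5 UMIs in all 4 groups.

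Netrins were low in neurons. Netrin 1 (Ntn1), the secreted ligand of Dcc and the Unc5 receptors, stood at 5.06 CPM in neurons, 23.4 in glia, 194 in stromal and 388 in vascular nuclei. Netrin 4 (Ntn4), a netrin of basement membranes, stood at 4.43 CPM in neurons, 25.8 in glia, 204 in stromal and 105 in vascular nuclei. The perineurial nuclei had the highest Ntn4 level of all named classes, 1156 CPM (911 to 1447), with a UMI in 43.6% of their nuclei, and 502 CPM of Ntn1. The sheath cells thus carried both netrins, while 36.4% of perineurial nuclei and 0 of 109 neuron nuclei still had an Ntn4 UMI after thinning.

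Class 3 semaphorins are secreted, and none of the 6 measured ones was highest in neurons, where they lay between 0.63 and 28.5 CPM. Sema3a, which repels sympathetic axons, stood at 2.53 CPM in neurons, 7.03 in glia, 64.7 in stromal and 299 in vascular nuclei. Of its 406 vascular UMIs, 366 came from the 59 lymphatic endothelial nuclei, whose level was 3605 CPM (3245 to 3994); without that cluster the stromal level was the highest of the 4 groups. Sema3d followed Sema3a in the lymphatic nuclei at 847 CPM, with 304 CPM in perineurial nuclei, but its stromal (95.2 CPM) and vascular (84.6 CPM) group levels did not differ beyond counting error (ratio 1.13, 0.87 to 1.46).

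Sema3f and Sema3g were endothelial. Sema3f stood at 0.63 CPM in neurons, 0 in glia, 2.91 in stromal and 80.9 in vascular nuclei, 27.8 times the stromal level (10.6 to 104). Sema3g stood at 1.27, 7.03, 1.45 and 79.5 CPM in the same order, 11.3 times the glial level (3.76 to 55.6). Within the vessels Sema3g was at 104 CPM in cluster 4 and 74.6 CPM in cluster 5, and had 0 UMIs in the lymphatic nuclei, where Sema3f was at 108 CPM. The vascular semaphorins were therefore split, with Sema3a and Sema3d in lymphatic endothelium and Sema3g in the endothelium of the other clusters.

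Sema3c and Sema3e were the class 3 semaphorins of glia and fibroblasts. Sema3c stood at 28.5 CPM in neurons, 216 in glia, 273 in stromal and 19.9 in vascular nuclei, with stroma and glia at the edge of counting error (ratio 1.26, 1.00 to 1.61). Sema3e, the ligand that binds plexin D1 without a neuropilin, stood at 6.33 CPM in neurons, 202 in glia, 101 in stromal and 10.3 in vascular nuclei, and glia were 2.00 times the stromal level (1.51 to 2.63). In the stroma it lay in cluster 2 (208 CPM) more than in cluster 6 (35.0 CPM). The fibroblasts of cluster 2 and the glia were thus alike in Sema3e and apart from the other fibroblasts. Glia also carried fibroblast markers at a summed 5495 CPM, and the part of this in their Sema3c and Sema3e levels was not tested.

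The membrane-bound semaphorins differed from one to the next. Sema6d, a transmembrane semaphorin that binds plexin A1, stood at 6713 CPM in neurons, against 326 in glia, 176 in stromal and 254 in vascular nuclei, a 26.6-fold ratio. Every one of the 109 neuron nuclei had a Sema6d UMI, and 87.2% had one after thinning, against 14.4% of lymphocytes, whose level of 251 CPM was within the range of the non-neuronal groups. Its relative Sema6a, a ligand of plexins A2 and A4, had the opposite order, with 40.5 CPM in neurons, 134 in glia, 110 in stromal and 431 in vascular nuclei, and 1271 CPM in lymphatic nuclei. Sema4f and Sema5b were highest in neurons, at 13.3 CPM on 21 UMIs each. Sema4b (33.5, 65.6, 26.2 and 29.4 CPM in neurons, glia, stromal and vascular nuclei) was highest in glia, 1.96 times the neuronal level (1.19 to 3.15). Sema5a was spread over 38.0 to 126 CPM, with stroma the highest, and Sema4d over 10.2 to 58.2 CPM, with neurons 1.39 times vascular nuclei (0.99 to 1.97). Sema7a, which is held in the membrane by a lipid anchor, had 0 UMIs in neurons and 56.7 CPM in vascular nuclei. Sema4a (highest in glia), Sema4c (stroma), Sema6b (vessels) and Sema6c (neurons) had 29 to 49 UMIs over the 4 groups. Sema4c was within counting error of vascular nuclei (ratio 1.16, 0.58 to 2.36) and Sema6c of stroma (1.13, 0.46 to 2.88). With clusters weighted equally, Sema4c was highest in vascular nuclei and Sema6c in stroma.

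Ephrins are the tethered ligands of Eph receptors. Ephrin A5 (Efna5) was found in every group, with 2475 CPM in neurons, 474 in glia, 723 in stromal and 2054 in vascular nuclei. The neuronal level exceeded the vascular one by 1.2 times (1.15 to 1.26), but the vascular value was an average over unlike clusters: 3671 CPM in endothelial cluster 4 and 227 to 499 CPM in the 3 other vascular clusters. Efna1 was low and vascular (2.53, 2.34, 8.00 and 36.1 CPM). Ephrin B2 (Efnb2), a marker of arteries in development, stood at 6.96 CPM in neurons, 7.03 in glia, 10.2 in stromal and 205 in vascular nuclei, 20.1 times the stromal level (11.8 to 37.2), and Efnb1 at 0.63, 11.7, 8.72 and 25.0 CPM. The vascular level of Efnb1 was within counting error of the glial one (ratio 2.13, 0.83 to 6.99), and among clusters its highest level was in perineurial nuclei (91.3 CPM on 6 UMIs). Of the 4 measured ephrins, Efna5 was thus highest in neurons by group but in endothelial cluster 4 by cluster. Efna1 and Efnb2 were highest in vessels, and Efnb1 could not be placed beyond counting error.

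**Figure D2:**
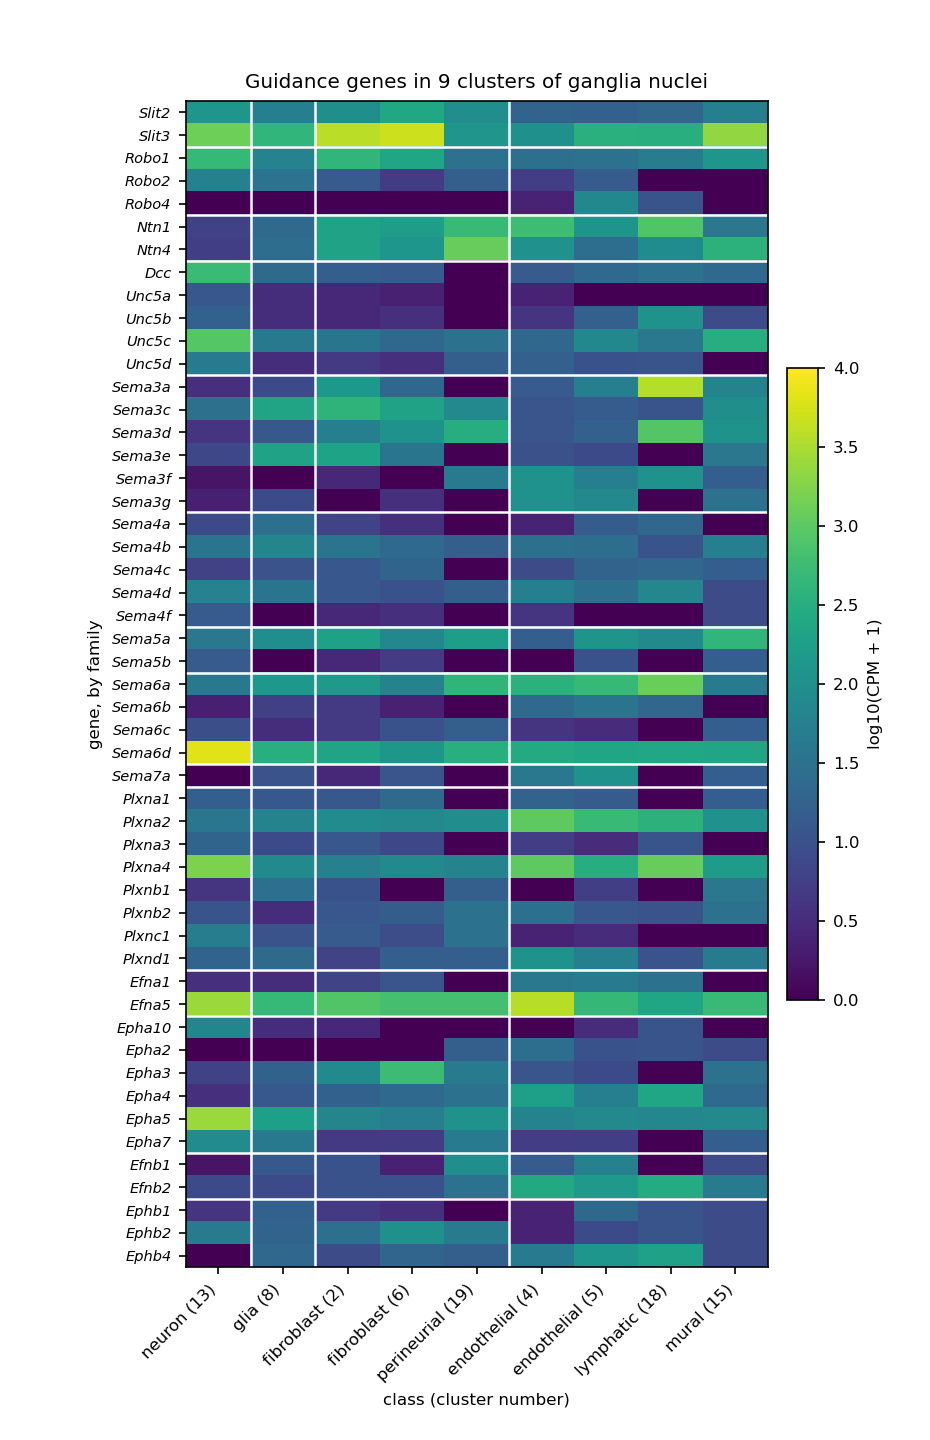
Level of each of the 51 measured genes, as log10(CPM + 1), in the 9 clusters that make up the 4 groups (white vertical lines separate neuron, glia, stromal and vascular clusters, and horizontal lines separate families). Sema6d at 6713 CPM in neurons, Slit3 at 4902 CPM in the fibroblasts of cluster 6 and Sema3a at 3605 CPM in lymphatic nuclei stand out.

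Among the receptors, Dcc and Unc5c were neuronal. Dcc, the receptor through which netrin 1 attracts axons, stood at 523 CPM in neurons, 23.4 in glia, 13.1 in stromal and 18.4 in vascular nuclei, 28.6-fold over the mean of the others. Unc5c, a receptor of the repulsive response to netrin 1, stood at 887, 39.9, 26.9 and 67.0 CPM in the same order, 19.9-fold over the others. In lymphocytes Dcc was at 38.6 CPM and Unc5c at 43.5 CPM, so their values in glia, stroma and most vessels lay at or near that of a class that should lack them, the exception being mural nuclei with 306 CPM of Unc5c. After thinning, 37.6% of neurons had an Unc5c UMI and 22% a Dcc UMI. Unc5d (41.7 CPM), Unc5b (16.5 CPM) and Unc5a (11.4 CPM) were also highest in neurons, Unc5b within counting error of vascular nuclei (ratio 1.06, 0.58 to 1.99), with 108 CPM in the lymphatic nuclei. Unc5b became highest in vascular nuclei under 3 of the alternatives: at least 500 genes per nucleus, the unnamed neuronal cluster added to the neurons, and clusters weighted equally. Unc5a, on 22 UMIs, was within counting error of glia (ratio 4.86, 0.77 to 202). Dcc, Unc5c and Unc5d were thus highest in the group in which both measured netrins were lowest, while Unc5a and Unc5b were not placed.

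Robo receptors were divided between neurons, stroma and vessels. Robo1 stood at 476 CPM in neurons, 58.6 in glia, 290 in stromal and 41.2 in vascular nuclei, and the neuronal level was 1.64 times the stromal one (1.45 to 1.86). It was found in 40.4% of neuron nuclei, and after thinning in 15.6%, beside 12% of stromal nuclei. The fibroblasts of cluster 2 had 422 CPM of Robo1 (369 to 481) and those of cluster 6, the cluster with more Slit3, had 220 CPM (188 to 256). Both fibroblast clusters therefore carried Slit3 and Robo1, with the higher level of each in a different cluster. Robo2 stood at 56.3, 32.8, 8.00 and 6.62 CPM, with neurons 1.72 times glia (0.97 to 3.26). Robo4, the Robo of endothelium, had 34 UMIs in vascular nuclei (25.0 CPM) and 0 in the 3 other groups. Its ratio was 28.2 with 3 counts over those groups put in for 0, which is not a lower limit. The interval of its ratio over neurons alone had a lower limit of 10.2. Of the 34 UMIs, 32 came from endothelial cluster 5 (72.4 CPM, 31 of 293 nuclei) and 1 from cluster 4, and Robo3 had 0 UMIs.

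Plexins are the signalling receptors of semaphorins. Plxna4, through which Sema3a and Sema6a act, stood at 1606 CPM in neurons, 79.7 in glia, 69.1 in stromal and 714 in vascular nuclei. It was carried by endothelial cluster 4 (1017 CPM) and lymphatic nuclei (1172 CPM), and its neuronal level was 2.25 times the vascular one (2.09 to 2.43). Plxna2 had 36.7, 61.0, 80.7 and 715 CPM in the same order, 8.86 times higher in vascular than in stromal nuclei (7.28 to 10.9). The class A plexins were thus divided, with Plxna4 in neurons and vessels, Plxna2 in vessels, Plxna3 at 18.3 CPM in neurons, and Plxna1 between 11.7 and 17.4 CPM in all 4 groups. Plxnc1, the receptor of Sema7a, was at 47.4 CPM in neurons and at most 10.9 CPM elsewhere, although the 87 B lymphocytes outside the groups had 109 CPM. Plxnd1, the receptor of Sema3e, was at 75.8 CPM in vascular nuclei and at most 23.4 CPM in the others.

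A-type Eph receptors were divided between neurons, stroma and vessels. Epha5, a receptor of A-type ephrins, stood at 2483 CPM in neurons, 178 in glia, 58.9 in stromal and 67.0 in vascular nuclei, 24.5-fold over the others. Its close relative Epha3 stood at 5.06, 16.4, 347 and 10.3 CPM in the same order, 32.7-fold higher in stroma, and there at 559 CPM (508 to 615) in cluster 6 against 78.1 CPM (56.3 to 106) in cluster 2. Receptors of the same ephrin thus marked neurons and 1 kind of fibroblast. Epha10, an Eph receptor that lacks kinase activity, was at 67.7 CPM in neurons on 107 UMIs and had 4 UMIs in the other groups together. Epha7 (83.5 CPM in neurons, 39.9 in glia) was also neuronal, 2.09 times glia (1.26 to 3.70). Epha2 had 24 UMIs in vascular nuclei (17.7 CPM) and 1 elsewhere, a ratio of 24.3 over stroma with an interval of 3.96 to 999, and Epha4 was at 127 CPM in vascular nuclei and at most 20.4 CPM in the others.

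None of the 3 measured B-type Eph receptors was highest in neurons. Ephb2 stood at 43.0 CPM in neurons, 18.8 in glia, 69.1 in stromal and 4.41 in vascular nuclei, and stroma was 1.61 times neurons (1.16 to 2.23). Ephb4, the receptor of ephrin B2 on veins, had 0 UMIs in neurons, 21.1 CPM in glia, 14.5 in stromal and 78.0 in vascular nuclei. Ephb1, with 28 UMIs in the 4 groups, was at 202 CPM in mesothelial nuclei outside them. The remaining measured receptors, Plxnb1 (28.1 CPM in glia on 12 UMIs) and Plxnb2 (21.3 CPM in vascular nuclei), had their highest levels there.

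Levels were also set on a scale of gene length, and whether the UMI counts rise in proportion to gene span was not tested. Per 100 kb of gene span, Sema6d had 1162 CPM in neurons, Efna5 889, Epha5 684, Plxna4 362, Unc5c 240, Slit3 225 and Epha10 187, while Dcc and Robo1, which span about a megabase each, had 47.7 and 46.7. In stromal nuclei Slit3 led on this scale with 726 CPM per 100 kb, followed by Efna5 with 260 and Ntn4 with 195. In vascular nuclei Efna5 had 738, Sema3g 637, Efnb2 465 and Efna1 391, so the short genes Sema3g and Efna1 ranked high there on levels per length that their CPM did not show.

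The vascular clusters were unlike in their guidance genes. Of the named clusters and classes with at least 50 nuclei, the lymphatic endothelium had the highest level for 8 of the 51 genes, beside 7.21% of all genes: Sema3a, Sema6a, Sema3d, Ntn1, Efnb2, Epha4, Ephb4 and Unc5b. Ephrin B2 (286 CPM, interval 191 to 410) and its receptor Ephb4 (197 CPM) were thus both there, although 35.0% of the Ephb4 UMIs came from 1 nucleus and the intervals of both genes overlapped those of an endothelial cluster. Cluster 4 was highest for 6 genes, beside 6.1% of all genes, among them Efna5, Plxna2 (1023 CPM) and Plxnd1 (107 CPM), and cluster 5 for 4 genes, beside 3.44% of all genes, among them Robo4 and Sema7a (109 CPM). Mural nuclei stood out within the vessels for Sema5a (425 CPM) and Ntn4 (373 CPM), both of which were higher in other classes. Ephb4 was at 44.0 CPM in cluster 4 and 124 CPM in cluster 5, and Efnb2 at 266 and 140 CPM, so the 2 genes had opposite orders in the 2 endothelial clusters.

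**Figure D3:**
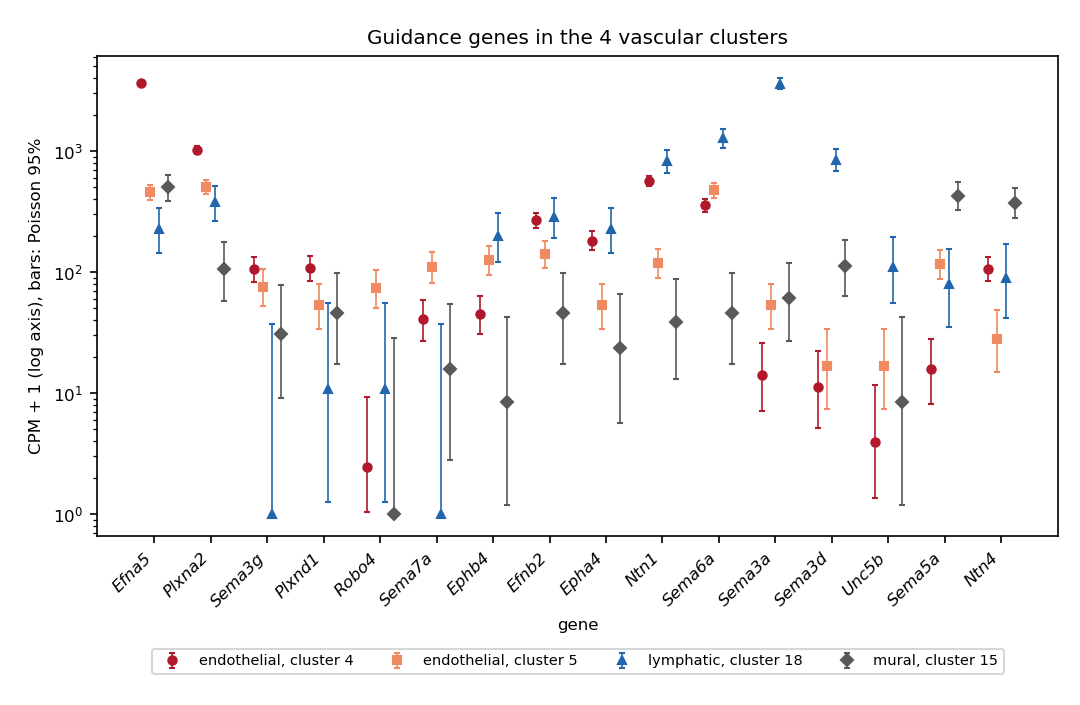
Level of 16 guidance genes as CPM + 1 on a log axis in the 4 vascular clusters, with exact Poisson 95% intervals; a point at 1 stands for 0 UMIs. The lymphatic nuclei lie highest for Sema3a (3605 CPM), Sema6a (1271 CPM) and Sema3d (847 CPM), and endothelial cluster 4 for Efna5 (3671 CPM) and Plxna2 (1023 CPM).

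Ligands and their receptors were highest in different groups about as often as any 2 genes. Of 20 textbook ligand and receptor pairs, each gene was placed in the cluster of the 4 groups where its CPM was highest. Both genes fell in the same cluster in 3 pairs, Efnb2 with Ephb4, Efnb2 with Epha4 and Ntn1 with Unc5b, all in the lymphatic nuclei, beside 12% of all pairs of tested genes. The first 2 of these rest on Efnb2 at 286 CPM there (191 to 410), within counting error of 266 CPM (228 to 307) in cluster 4. The genes fell in the same group in 7 pairs and in different groups in 13, beside 64.6% of all pairs of tested genes, so the split is near the background. In 9 pairs the receptor was highest in neurons and the ligand elsewhere, as for Ntn1 with Dcc and Unc5c, Slit3 with Robo1, Sema3a with Plxna4, and Efna5 (cluster 4) with Epha5. The reverse was Sema6d, whose ligand gene was highest in neurons while its receptor Plxna1 reached at most 23.3 CPM, in the fibroblasts of cluster 6. The 9 pairs share genes, and no share over all gene pairs was counted for that order, so no pattern is read from their number. Levels of RNA in nuclei say nothing of contact between the cells.

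Within the neurons some guidance genes differed between the 2 largest sub-clusters. The neurons were clustered again without the 67 genes, which gave sub-cluster 1 with 45 nuclei (leading genes Alk, Lrrc7 and Grin3a), sub-cluster 2 with 38 (Gal, Dkk2 and Npy), and smaller ones of 16 and 10. Neuropeptide Y (Npy), a cotransmitter of many vasoconstrictor neurons, was at 104 CPM in sub-cluster 1 and 1826 CPM in sub-cluster 2. Of 21 guidance genes with at least 20 UMIs in both together, 7 were at least 2-fold apart, beside 11.8% of all 6651 such genes, and for 11 the interval of the ratio left out 1. Among genes with at least 100 UMIs the counts were 3 of 9 (33.3%) for the guidance genes and 9.06% for all genes.

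Robo1 and its ligand Slit2 went opposite ways. Robo1 was at 1014 CPM (934 to 1099) in sub-cluster 1 and 54.8 CPM (37.2 to 77.8) in sub-cluster 2, a ratio of 18.5 (12.9 to 27.5). Per nucleus, sub-cluster 1 had between 0 and 123 Robo1 UMIs with a median of 4.00, and sub-cluster 2 between 0 and 15 with a median of 0, so the ranges overlapped. A UMI was found in 28 of 45 and 7 of 38 nuclei, and after thinning in 15 and 0. Slit2 was at 47.6 CPM in sub-cluster 1 and 263 CPM in sub-cluster 2, a ratio of 5.53 (3.67 to 8.60), in 6 of 45 and 26 of 38 nuclei. After thinning only 1 and 2 nuclei still had a Slit2 UMI, and 60.7% of the Slit2 UMIs of sub-cluster 1 came from 1 nucleus. Counted per nucleus, sub-cluster 1 held 26 nuclei with Robo1 alone, 4 with Slit2 alone and 2 with both, and sub-cluster 2 held 2, 21 and 5. The medians of total UMIs were 8574 and 11630, so the sub-cluster with fewer Robo1 nuclei and more Slit2 nuclei was the deeper one. The part of depth in the Slit2 nuclei was not tested.

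The other guidance genes of the neurons were shared or moved less. Epha5 was at 1780 CPM in sub-cluster 1 and 3932 CPM in sub-cluster 2, 2.21 times higher in the second (2.05 to 2.38), and Epha7 was 2.25 times higher there (1.45 to 3.56). Sema3c (2.49 times) and Plxna2 (2.21 times) were higher in sub-cluster 1 on 43 UMIs or fewer. Unc5d was 3.41 times higher in sub-cluster 1, but 87.0% of its UMIs there came from 1 nucleus. Dcc (ratio 1.09, 0.93 to 1.28) and Slit3 (0.98, 0.88 to 1.09) had intervals that included 1, and Sema6d was at 0.86 (0.82 to 0.90) of the level of sub-cluster 2. Unc5c was at 1.29 (1.15 to 1.45), so the ratio of Robo1 between the 2 sub-clusters was far above those of the netrin receptors Dcc and Unc5c.

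The 10 nuclei of sub-cluster 4 are described although they fell below the minimum of 30 nuclei, and they were chosen after their values were seen. Their leading genes were Sox6, Slc18a1 and Syt10. Robo2 was at 348 CPM there (275 to 436), in 7 of 10 nuclei, against 10.2, 3.53 and 23.9 CPM in sub-clusters 1, 2 and 3. Of the 89 Robo2 UMIs of all neurons, 76 were in these 10 nuclei. Slit2 had 0 UMIs there, which allows up to 16.9 CPM, Robo1 was at 64.2 CPM and Sema5a at 197 CPM. The Robo2 level of the neurons as a group therefore came from few nuclei.

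**Figure D4:**
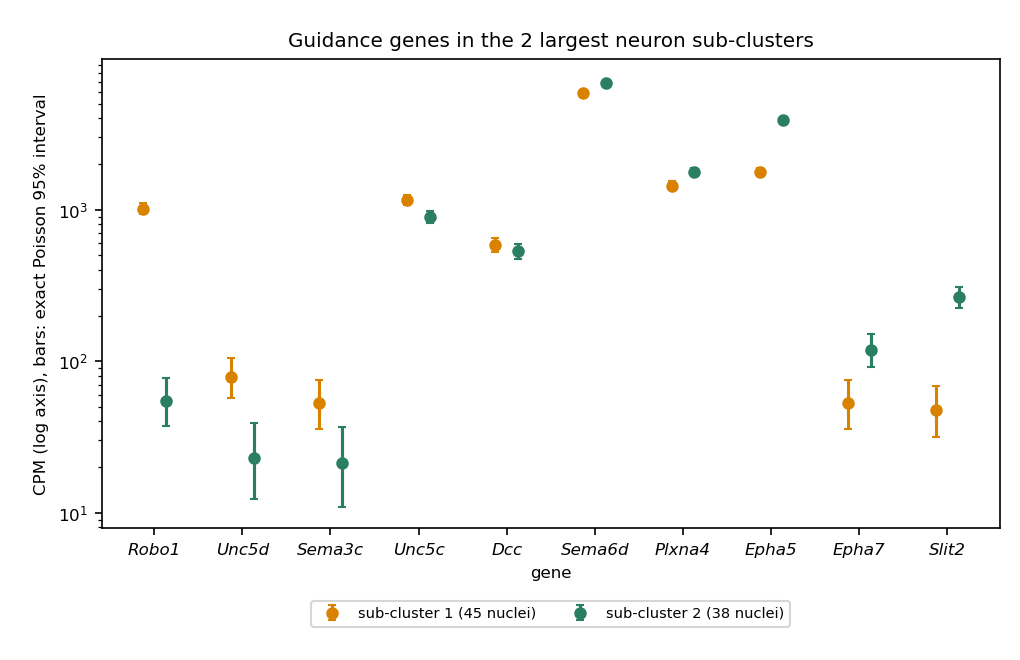
CPM on a log axis of 10 guidance genes in the 2 largest neuron sub-clusters, with exact Poisson 95% intervals. Robo1 (1014 against 54.8 CPM) and Slit2 (47.6 against 263 CPM) lie far apart in opposite directions, while Dcc and Sema6d nearly coincide.

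The rest of the pathway was read from 75 other genes, co-receptors, further ligands and the cytoplasmic proteins that carry guidance signals to the cytoskeleton; 71 were measured. In neurons 17 (23.9%) were at least 2-fold higher, beside 12.8% of all genes, and 22 (31.0%) at least 2-fold lower, beside 36.0%, with a median log2 ratio of -0.32 beside -0.61. With free RNA subtracted, its profile taken as the sum over all kept nuclei, the 17 became 29. The shares subtracted were unequal between the groups, so no conclusion is drawn from that rise. Among the highest ratios were those of Dpysl5 and Crmp1, collapsin response mediator proteins that act downstream of semaphorins (13.6-fold and 9.42-fold), Dscam, a netrin co-receptor (9.93-fold), the kinase Pak3 (9.88-fold) and Trim67, a ubiquitin ligase that binds Dcc (6.48-fold). The lowest belonged to Rgma, a ligand of neogenin, at 0.038 times the level of the other groups, the Rac activator Dock1 (0.054), and the receptor kinases Met (0.068) and Mst1r (0.096). Neuropilin 1 (Nrp1), the co-receptor of Sema3a, was at 166 CPM in neurons, 204 in glia, 534 in stromal and 487 in vascular nuclei, so its neuronal level was the lowest of the 4. The record named Nrp2 sat out of order among the deposited records and is not used.

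The 16 genes below the minimum had 0 to 18 UMIs in the 4 groups. Robo3, Epha8 and Ntn5 had none. Sema4g had 18, Epha6 14, Sema3b 12, Plxnb3 10, Efna2 9, Ephb3 and Ephb6 7 each, Epha1 6, Slit1 and Ntn3 5 each, Efna4 4, Efna3 3 and Efnb3 2. For 2 of them the interval of the highest group over the second lay above 1: Plxnb3, with 9 UMIs in glia and 1 in neurons (ratio 33.4, 4.62 to 1462), and Ntn3, with its 5 UMIs all in vascular nuclei (lower limit 1.07). For the others, differences between groups were not detectable at this depth.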

How the data were processed

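Nuclei of pooled ganglia were captured with 10x Genomics 3' chemistry, per the labels' protocols. The authors deposited unnormalized UMI counts, written by Cell Ranger 7.1.0 per the file headers. The submitters' processing notes name the build GRCm39, R 3.6.0 and Seurat 5.1.0 without a role for each. Counts of the skin libraries were not used here.

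Of 4706 barcodes, 1 with fewer than 200 genes, 196 with over 5% mitochondrial UMIs and 2 called as doublets by Scrublet (expected share 6%) were removed. The Scrublet score separated almost no nuclei, so undetected doublets remain. Counts were scaled to 10000 per nucleus and log-transformed, and the 2000 most variable genes without the guidance genes (1979) entered 30 principal components, 15 neighbours and Leiden clustering at resolution 1.0 (scanpy 1.11.5, anndata 0.12.19, leidenalg 0.10.2, igraph 0.11.9, umap-learn 0.5.12, scikit-learn 1.9.0, numpy 2.4.6, scipy 1.17.1, pandas 2.3.3, matplotlib 3.10.9, Python 3.11.15). A cluster took the class whose markers were on average highest over the other clusters, with 10 CPM added, and needed at least 3 markers in 5% of its nuclei or more, each raised over 2-fold there, and no more markers of another class than of its own among its 10 leading genes. Clusters led by haemoglobin that carried 3 or more markers of another class were not named. By these rules 5 clusters stayed unnamed, among them 1 of 120 nuclei with neuronal and haemoglobin transcripts. Neurons were clustered again at resolution 0.5.

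UMIs were summed per group and given as CPM with exact Poisson intervals. Ratios of 2 units had exact conditional binomial intervals, and a denominator of 0 was set at 3 counts over the other groups. The group totals were 1580920 UMIs (neurons), 426547 (glia), 1375420 (stromal) and 1359069 (vascular), which set the width of the intervals. Nuclei are not replicates, so no test was run. To compare shares of nuclei across depths, each nucleus was thinned to 500 UMIs.

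The genes, lists, pairs, markers and alternatives were chosen with earlier results of these data known. Named by rule were, in each group, the 6 genes with the highest ratio on at least 20 UMIs, in each family the 2 with most UMIs, 6 highest and 4 lowest pathway genes, and 4 genes with the widest range over neuron sub-clusters; other named genes were chosen after their values were seen. A few genes that these rules and lists cover are not reported here. Alternatives changed the resolution, the clustering genes, the filters, mixed and deep nuclei, free RNA, the weighting of nuclei and the UMI minimum. Gene order was compared with GENCODE M21 by gene ID: of 32158 placed records, 2 (named Pdyn and Nrp2) lay between genes of another chromosome, and neither is a guidance gene counted here.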

Additional observations from a re-analysis of the deposited data

How the results depend on the processing

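No paired analysis was possible because each group has 1 library. The number of nuclei and the depth limit the values: neurons were 109 nuclei from 1 pool, and most genes under 20 UMIs cannot be placed beyond counting error. There were 13 alternatives, 3 of them chosen after seeing the data. The UMI minimums of 50 and 1 changed only which genes were counted, so no highest group could change under them. Under the others, 44 of 51 genes or more kept their highest group wherever 51 could be counted. It was 46 of 48, 47 of 49 and 44 of 45 under the settings that measured fewer. Across all alternatives the counts for neuron, stromal and vascular nuclei stayed within 1.5 times of those given above. The sizes of the ratios were less stable than the highest groups. All 51 log2 ratios stayed within their counting interval at resolution 2.0, but 26 of 51 did with clusters weighted equally. Without mixed-marker nuclei 22 of 45 did, and with free RNA subtracted 9 of 51. That subtraction moved the log2 ratio of Sema6d in neurons from 4.74 to 12.5. The glial counts moved. The genes highest in glia went from 5 to 3 without mixed-marker nuclei, 3 with free RNA subtracted, 2 at a minimum of 50 UMIs and 9 at 1 UMI. Those at least 2-fold higher in glia went from 6 to 11 with free RNA subtracted, 3 with the mean over nuclei, 3 at 50 UMIs and 16 at 1 UMI. The pathway genes higher in neurons went from 17 to 29 with free RNA subtracted. The genes apart in the neuron sub-clusters went from 7 to 13 at 1 UMI and to 23 with the unnamed neuronal cluster added to the neurons; this count was not run with free RNA subtracted or clusters weighted equally. The log2 ratio of Sema3a in vascular nuclei turned to -0.21 at resolution 0.5, where that group fell to 373 nuclei, and was 0.36 without the lymphatic cluster. The same setting made Efna5 highest in vascular nuclei, and Robo2 was highest in glia without the deepest 5% of nuclei. The free RNA profile was not measured apart from the nuclei but taken as the summed UMIs of all kept nuclei. The subtraction took out 100% of that profile, the most allowed, from glia and 23.9% from neurons. From stromal nuclei it took out 62.5% and from vascular nuclei 65.5%. With such unequal shares, no conclusion on the size of the neuron ratios is drawn from this setting. The causes were otherwise not tested.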

Other observations

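Guidance genes were also read in classes outside the 4 groups. Of the 51 measured genes, 11 had their highest level there among classes with at least 50 nuclei, beside 50.1% of all genes. Mesothelial-like nuclei were highest for 5 genes, beside 4.58% of all genes: Plxna4 (2352 CPM), Sema5a (984 CPM), Sema3c (512 CPM), Ephb1 (202 CPM) and Sema4c (24.4 CPM). B lymphocytes, with the highest level of 7.36% of all genes, were highest for Sema4d (252 CPM), the semaphorin also known as CD100, Sema4b (185 CPM) and Plxnc1 (109 CPM). Macrophages were highest for Sema4a (57.6 CPM), monocytes for Plxnb2 (54.0 CPM) and skeletal muscle for Sema6c (16.6 CPM).

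A cluster of 16 nuclei carried markers of central neurons and another of 27 those of central oligodendrocytes, cell types that a ganglion should not hold. In the 16 nuclei Robo1 was at 2579 CPM (2267 to 2921), Unc5d at 1305 CPM, Dcc at 783 CPM, and Epha6, which had 14 UMIs in the 4 groups, at 1493 CPM (1258 to 1759) in 15 of 16 nuclei. In the 27 nuclei Unc5c was at 1227 CPM (868 to 1684), Robo1 at 1130 CPM and Sema6a at 710 CPM. Their origin was not tested. Both clusters lay outside the neuron and glia groups, so these values enter none of the group levels.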
